A study of Mus musculus with 18 samples.

Results

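Cplane1, Intu, Fuz and Wdpcp encode 4 proteins of the ciliogenesis and planar polarity effector (CPLANE) complex, and their transcripts were followed across the liver libraries of a microbiota transfer study in mice. The genes were found by their symbols in the deposited table, which lists 19057 genes, and all 4 were listed. Genes averaging 0.1 RPKM or more were tested, 13307 in all, and all 4 were among them. Cplane1 was chosen by its measured difference between the HS and Con livers, and the other 3 genes for their proteins' place in the same complex, so the comparison of HS with Con is given for these genes as a description, with no test.

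The primary cilium is an antenna of microtubules that grows from a basal body at the cell surface and gathers receptors, among them those of the Hedgehog pathway. The CPLANE proteins sit at the basal body, where Intu, Fuz and Wdpcp form the core and Cplane1 (also known as Jbts17) joins them, and they bring the intraflagellar transport machinery, above all its IFT-A part, to the base of the growing cilium. In the liver, primary cilia are known mainly from the epithelial cells of the bile ducts, while hepatocytes, the main cell type by mass, are generally described as lacking them.

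The livers came from male ICR mice of 10 weeks. Con mice ate a regular diet and received saline. HS mice ate a high-fat diet and were injected once with streptozotocin (STZ), which kills pancreatic beta cells. A10-FMT and Con-FMT mice had the same diet and STZ and in addition received microbiota by mouth, taken from the small intestine of donors dosed with alginate oligosaccharide (AOS, 10 mg/kg) or of control donors. The donor material of a group was pooled, so that the recipients of a group shared 1 inoculum. The labels name 2 further groups, A10, given 10 mg/kg AOS, and HS+A10, given AOS at that dose on top of the HS treatment, for which diet and schedule are not given in more detail; below, Con and A10 are called the regular-diet libraries, which for A10 rests on its label naming no high-fat diet. Each group had 3 libraries, numbered 1 to 3, 18 in all. The sources used here do not say in words that each library is 1 animal, and p-values measure the spread between these libraries.

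The values were RPKM, the reads of a gene divided by its length and by the reads of the library, as deposited. Their sums per library ran from 692818 to 806937 RPKM, and the reads behind them were unknown. The 8 hepatocyte markers summed to between 38168 and 57789 RPKM, with Alb at 21271 RPKM or more, Ttr at 3156 RPKM or more and Apoa1 at 5999.6 RPKM or more in every library. Con replicate 3 and A10 replicate 3 stood apart from the other 16 libraries. Among genes that differed by more than 2-fold between the other libraries of their group, Con replicate 3 lay between those libraries for 117 of 118 genes (99.2%) and A10 replicate 3 for 99 of 102 (97.1%), against 0 to 75.8% elsewhere. Calls lost without this pair of libraries are given below, by name for some lists and only as counts for most cilium comparisons. A cilium gene named there without such a remark may be among the calls lost. In Con-FMT replicate 3 the 16 pancreatic acinar enzymes summed to 23112 RPKM, against 14.2 to 50.7 RPKM in the other 17 libraries, with the elastase genes Cela1 at 1124 RPKM, Cela2a at 2778 RPKM and Cela3b at 1321 RPKM.

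Cplane1 lies on chromosome 15 of GRCm38, at chr15:8169106-8271158 on the forward strand, and its exons cover 13095 bases. Intu lies at chr3:40531286-40704774, Fuz at chr7:44896079-44902631 and Wdpcp at chr11:21572235-21898989, all on the forward strand. The stretch before the start of Cplane1 is shown first, because its transcript is the one whose level differed most among the libraries. It is given with the letters of an X-box in capitals, the pattern recognised by the RFX factors that switch on many cilium genes. It covers chr15:8168856-8169105 of GRCm38.p6, forward strand, from RefSeq.
Cplane1: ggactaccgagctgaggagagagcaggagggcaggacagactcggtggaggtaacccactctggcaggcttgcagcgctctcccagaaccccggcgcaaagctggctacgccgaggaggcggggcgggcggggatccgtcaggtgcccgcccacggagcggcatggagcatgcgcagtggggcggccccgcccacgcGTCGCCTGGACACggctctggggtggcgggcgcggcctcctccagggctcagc

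For the partners, 30 bases around each stretch of X-box letters are shown so that the matches can be compared with that of Cplane1, again from RefSeq, build GRCm38.p6, forward strand, with the letters in capitals. They lie at chr3:40540709-40540738, chr3:40540748-40540777 and chr11:21572282-21572311.
Intu, longer form: gcttccccGTCTCCCAGGCAACcggcgcct
Intu, shorter form: gcaactgaGTATCGGGGTCACgtggcccga
Wdpcp, shorter form: gcttcaccGTTGCTAGGCGACgaggcagcc

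The windows searched ran from 250 bases before to 50 bases after the RefSeq start, while the gene positions above come from GENCODE. The starts of the annotations coincide for Cplane1 and Fuz, and the RefSeq start lies 46 bases further into the gene for Wdpcp and 9481 bases further for Intu, whose window is thus not next to the first base of the position given. All windows had the same length, and all 4 genes had an entry among 32851 promoters. The letters searched were GTNNCNNNNGNNAC, present in 7.17% of all promoters, and the shorter form GTNNCNNNGNNAC, present in 6.19%. Each form reads the same on both strands. The window of Cplane1 held 1 match of the shorter form, that of Wdpcp 1 of the shorter form, that of Intu 1 of each form, and that of Fuz none. The window of Cplane1 was rich in G and C, at 72.7%, against a median of 52.7% over all promoters, 53.7% for Intu, 45.0% for Fuz and 57.7% for Wdpcp. It held 29 CpG dinucleotides, where the median promoter held 7, and 5 GC boxes (GGGCGG, on either strand), a motif found at least once in 35.7% of all promoters. A match of letters describes the sequence and does not show binding.

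Cplane1 was low in every liver on the regular diet and several-fold higher in every liver of mice given the high-fat diet and STZ, with the recipients of AOS-dosed microbiota in between. In Con livers Cplane1 stood at 0.55, 0.60 and 0.57 RPKM (0.573 ± 0.025, SD, n = 3). In A10 livers it stood at 0.61, 0.53 and 0.55 RPKM (0.563 ± 0.042). The 6 values of these groups lay within a narrow band, and the ranges of the groups overlapped.

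In HS livers Cplane1 reached 11.29, 8.24 and 12.02 RPKM (10.5 ± 2.01, n = 3). In HS+A10 livers it reached 13.70, 14.12 and 16.21 RPKM (14.7 ± 1.34), the highest group, each library above each HS library (24.6% of all tested genes did not overlap between HS+A10 and HS). In Con-FMT livers the values were 9.87, 12.22 and 12.26 RPKM (11.5 ± 1.37), which overlapped with HS. In A10-FMT livers they were 5.84, 2.63 and 3.05 RPKM (3.84 ± 1.74), so that all 3 libraries lay below every other library with the high-fat diet and STZ and above every library on the regular diet. Among all tested genes, 34.2% did not overlap between A10-FMT and HS.

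**Figure D1:**
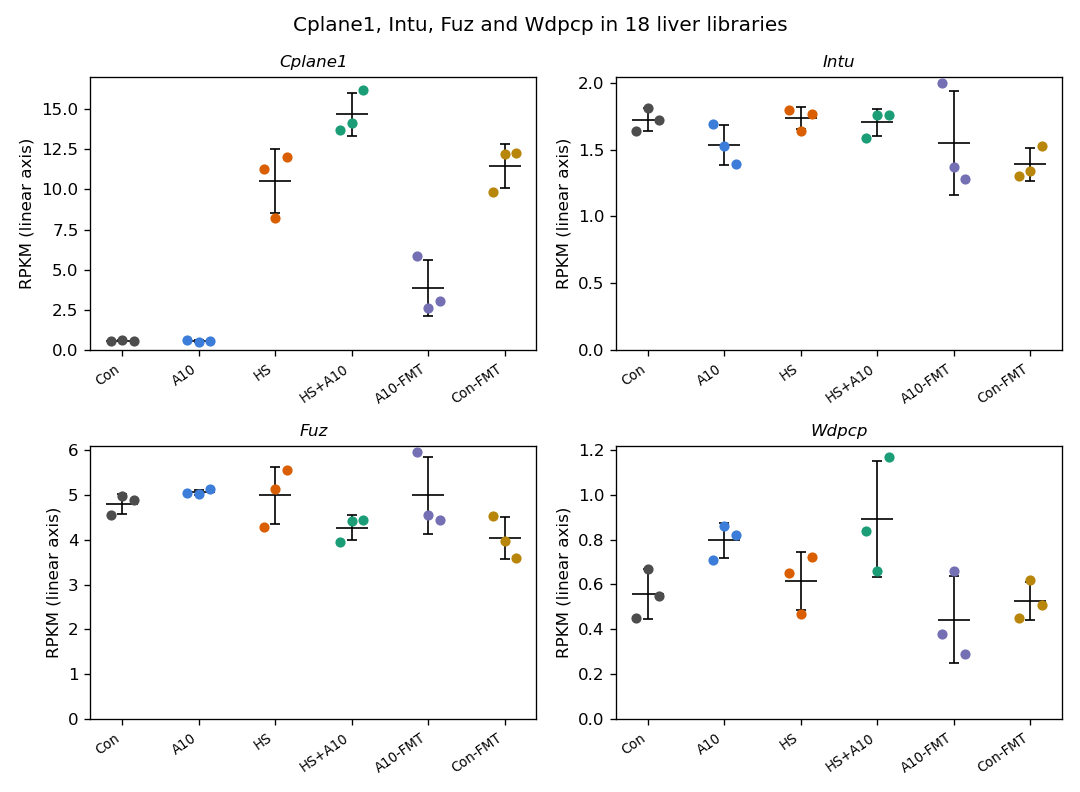
RPKM (y axis, linear, starting at 0) of Cplane1, Intu, Fuz and Wdpcp in the 6 groups (x axis); each point is 1 library, the long bar is the mean of 3 libraries and the whiskers are 1 SD. Cplane1 lies at 0.53 to 0.61 RPKM in the Con and A10 libraries and at 2.63 to 16.21 RPKM in the other 4 groups, while the points of the other genes overlap between most groups.

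Over all libraries, the 12 with the high-fat diet and STZ ranged from 2.63 to 16.21 RPKM with a median of 11.7, and the 6 on the regular diet from 0.53 to 0.61 with a median of 0.560. The lowest of the 12 was 4.31 times the highest of the 6. Of 13307 tested genes, 189 (1.42%) had all 12 libraries above all 6, and 317 (2.38%) did not overlap in either direction. The first of these shares is the background against which the pattern of Cplane1 stands, and as the HS and Con libraries chose the gene nothing more is read from it. In bulk liver, a lower level per cell and fewer cells that express a gene cannot be told apart.

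The order of the group means for Cplane1 was A10, Con, A10-FMT, HS, Con-FMT and HS+A10. A10 and Con did not differ beyond their spread, and neither did HS and Con-FMT, whose ranges overlapped. The means of HS and Con, between which 33.4% of all tested genes did not overlap, were 18.3-fold apart, a difference of 3.96 on the log2(RPKM + 0.1) scale on which all differences below are given. The HS+A10 mean was 1.40 times that of HS (log2 difference 0.49), and the Con-FMT mean was 1.09 times that of HS (0.13). The HS mean was 2.74 times the A10-FMT mean, and the A10 minus Con difference was -0.02. These values share the HS or Con libraries and are descriptions.

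Tests were run among A10, HS+A10, A10-FMT and Con-FMT, the 4 groups outside the HS and Con difference that chose the gene. These comparisons were themselves chosen with earlier results of these data known, which limits what their p-values can carry. The question was whether the level of Cplane1 differed with the diet and STZ under AOS, and with the source of the transferred microbiota. Genes were called at an adjusted p under 0.05 in limma, fitted to all 18 libraries and adjusted by Benjamini and Hochberg over all 13307 genes. The spread used in each test thus also comes from the Con and HS libraries.

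Cplane1 was higher in HS+A10 than in A10 livers, 14.7 against 0.563 RPKM, by 4.48 (SE 0.22, 95% interval 4.01 to 4.94, adjusted p = 1.39e-08 by limma). No gene had a smaller adjusted p in this comparison, in which 16.7% of the genes were called, and 7 genes had a larger difference. Without Con replicate 3 and A10 replicate 3 the difference was 4.46 (adjusted p = 2.11e-06 by limma). All 3 HS+A10 libraries lay above all 3 A10 libraries, for which the exact two-sided permutation test of 3 against 3 gave p = 0.1, the smallest it can give.

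Cplane1 was also higher in both groups of recipients than in A10 livers. The difference was 4.12 for Con-FMT (SE 0.22, 95% interval 3.65 to 4.58, adjusted p = 4.88e-08 by limma), where 25.2% of the genes were called and 40.5% did not overlap. It was 2.49 for A10-FMT (SE 0.22, 95% interval 2.02 to 2.95, adjusted p = 2.18e-05 by limma), where 9.36% of the genes were called and 31.8% did not overlap. Without A10 replicate 3 and Con replicate 3 these differences were 4.10 and 2.47 (adjusted p = 6.2e-06 and 0.000685 by limma). The groups compared differ in diet, STZ and the transfer at once, and these cannot be told apart here.

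The recipients of microbiota from AOS-dosed donors had less Cplane1 than recipients of control microbiota, 3.84 ± 1.74 against 11.5 ± 1.37 RPKM, with no overlap, as in 28.5% of all tested genes. The difference was -1.63 (SE 0.22, 95% interval -2.09 to -1.17, adjusted p = 0.000252 by limma), in a comparison in which 15.4% of the genes were called, 5.86% as higher and 9.56% as lower in A10-FMT. In 77 genes the adjusted p was smaller. Leaving out 1 library at a time, the difference lay between -1.97 and -1.41, and it was called each time. Without Con-FMT replicate 3, the library with the acinar enzymes, it was called too, and Cplane1 itself was at 12.26 RPKM in that library and at 12.22 RPKM in Con-FMT replicate 2.

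Against HS+A10 livers, A10-FMT livers had less Cplane1 by 1.99 on the log2 scale (log2 difference -1.99, SE 0.22, 95% interval -2.45 to -1.53, adjusted p = 0.00083 by limma), and no gene had a smaller adjusted p among the 9.63% of genes called, while 30.1% did not overlap. Con-FMT and HS+A10 did not overlap in Cplane1, which held for 41.5% of all tested genes in that comparison. The difference of -0.36 (SE 0.22, 95% interval -0.82 to 0.10) did not pass the test (adjusted p = 0.228 by limma), while 29.8% of the genes were called. The interval included no difference.

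**Figure D2:**
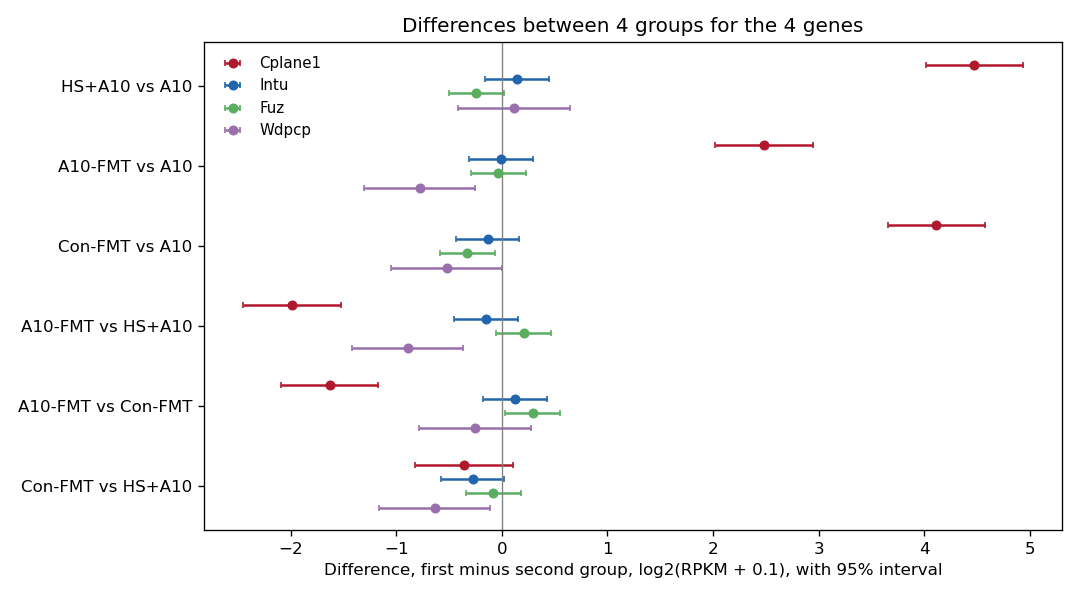
Difference between 2 groups (x axis, first minus second, log2(RPKM + 0.1)) for Cplane1, Intu, Fuz and Wdpcp in the 6 comparisons of A10, HS+A10, A10-FMT and Con-FMT (y axis); points are limma estimates and bars their 95% intervals. Cplane1 lies between 2.49 and 4.48 in the 3 comparisons with A10 and at -1.99 and -1.63 for A10-FMT against HS+A10 and Con-FMT, and the partners lie between -0.89 and 0.29.

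The 3 partners varied much less, a contrast that follows in part from choosing Cplane1 by its difference between HS and Con. The highest group mean of Cplane1 was 26.1 times the lowest, while this ratio was 1.25 for Intu, 1.26 for Fuz and 2.01 for Wdpcp. Of the comparisons tested for the partners, 1 was called, for Wdpcp, and none for Intu or Fuz.

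Intu, which encodes a core protein of the complex with a PDZ domain, was expressed at 1.28 to 2.00 RPKM in the 18 libraries. In Con livers Intu stood at 1.64, 1.81 and 1.72 RPKM, and in A10 livers at 1.69, 1.53 and 1.39 RPKM. In HS livers it stood at 1.80, 1.64 and 1.77 RPKM, and in HS+A10 livers at 1.59, 1.76 and 1.76 RPKM. The ranges of the 4 groups overlapped. In A10-FMT livers Intu was at 2.00, 1.37 and 1.28 RPKM, with replicate 1 the highest of all libraries and replicate 3 the lowest. In Con-FMT livers it was at 1.30, 1.34 and 1.53 RPKM, below all HS libraries, with a difference from HS of -0.30 (SE 0.14, 95% interval -0.61 to -0.003, adjusted p = 0.146 by limma) that was not called, in a comparison in which 32.4% of all genes did not overlap and 20.0% were called. The HS mean and the Con mean of Intu were 1.74 and 1.72 RPKM.

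Fuz, whose product is another core protein and whose loss in mice is known for ciliary defects, was the most highly expressed of the partners, at 3.60 to 5.97 RPKM. Con livers had 4.56, 4.98 and 4.88 RPKM of Fuz and HS livers had 4.29, 5.14 and 5.55 RPKM. A10 livers had 5.04, 5.03 and 5.13 RPKM and HS+A10 livers 3.95, 4.41 and 4.45 RPKM. The HS+A10 libraries lay below the A10 libraries, as 39.5% of all genes did not overlap in this comparison, and the difference of -0.24 (SE 0.12, adjusted p = 0.195 by limma) was not called. A10-FMT livers had 5.97, 4.55 and 4.45 RPKM and Con-FMT livers 4.53, 3.98 and 3.60 RPKM. These groups overlapped in Fuz, and their difference of 0.29 (SE 0.12, 95% interval 0.03 to 0.55, adjusted p = 0.122 by limma) was not called as deposited. With each library scaled to the same median, the Fuz differences of HS+A10 from A10 (-0.31, adjusted p = 0.0466 by limma) and of A10-FMT from Con-FMT (0.34, adjusted p = 0.0317 by limma) were called.

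Wdpcp, whose product also takes part in the organisation of septins and actin, was the lowest of the 4 genes on average, at 0.29 to 1.17 RPKM. In Con livers Wdpcp stood at 0.45, 0.67 and 0.55 RPKM, and in A10 livers at 0.71, 0.86 and 0.82 RPKM. All A10 values lay above all Con values, a pattern shared by 22.1% of the genes in either direction, and the difference of 0.46 (SE 0.25, adjusted p = 0.467 by limma) was not called, in a comparison in which 0.0676% of the genes were. In HS livers it stood at 0.65, 0.47 and 0.72 RPKM and in HS+A10 livers at 0.84, 0.66 and 1.17 RPKM. These ranges overlapped, and the difference of 0.46 (SE 0.25, adjusted p = 0.305 by limma) was not called, where 4.42% of the genes were. In A10-FMT livers Wdpcp stood at 0.38, 0.66 and 0.29 RPKM and in Con-FMT livers at 0.45, 0.62 and 0.51 RPKM.

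Wdpcp was lower in A10-FMT than in HS+A10 livers by 0.89 on the log2 scale (log2 difference -0.89, SE 0.25, 95% interval -1.42 to -0.36, adjusted p = 0.0351 by limma), the 1 partner difference that was called. The groups touched at 0.66 RPKM, and the call was lost without HS+A10 replicate 3 (difference -0.70, adjusted p = 0.138 by limma), without A10-FMT replicate 3 (-0.68, adjusted p = 0.175 by limma), without HS+A10 replicate 1 (-0.91, adjusted p = 0.073 by limma) and without A10-FMT replicate 1 (-0.83, adjusted p = 0.0641 by limma). It was also lost without Con replicate 3 and A10 replicate 3 (adjusted p = 0.0675 by limma) and under both scalings of the libraries. Against A10, Wdpcp differed by -0.78 in A10-FMT (SE 0.25, adjusted p = 0.061 by limma) and by -0.52 in Con-FMT (SE 0.25, adjusted p = 0.137 by limma), neither of which was called.

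Whether the diet and STZ difference of the partners was another one under AOS was asked as the HS+A10 minus A10 difference less the HS minus Con difference. It was 0.13 for Intu (95% interval -0.29 to 0.56, adjusted p = 0.852 by limma). For Fuz it was -0.29 (95% interval -0.66 to 0.08, adjusted p = 0.541 by limma). For Wdpcp it was -0.002 (95% interval -0.75 to 0.74, adjusted p = 1.00 by limma). None was called, and the interval of Wdpcp in particular is wide.

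The fifth protein of the complex is the small GTPase Rsg1, also known as Cplane2. Its transcript was listed at 0 in 9 of the 18 libraries and reached 0.32 RPKM at most, with a mean of 0.0711 RPKM. It did not pass the filter and was not tested.

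Reads at a pair of the partners could come from overlapping genes. Fuz shares 2258 bases with Ap2a1 on the other strand, which was at 9.03 to 12.03 RPKM, and Wdpcp shares 132 bases with Mdh1 on the other strand, which was at 222 to 315 RPKM. Whether the counting used strand is not given in the sources used here, so the values of Fuz and Wdpcp are uncertain to that extent. Cplane1 overlaps neither of its neighbours in the table. Nup155, which encodes a protein of the nuclear pore, ends 7859 bases before it, and Nipbl, which encodes the loader of cohesin onto chromosomes, begins 19459 bases beyond it on the other strand.

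The neighbours of Cplane1 did not share its range. Nup155 lay between 2.75 and 4.07 RPKM and Nipbl between 3.32 and 5.18 RPKM in the 18 libraries. In HS+A10 against A10 livers, where Cplane1 differed by 4.48, Nup155 differed by -0.04 (SE 0.12, 95% interval -0.28 to 0.21, adjusted p = 0.86 by limma). Nipbl differed by -0.004 (SE 0.12, 95% interval -0.27 to 0.26, adjusted p = 0.988 by limma). In A10-FMT against Con-FMT livers Nup155 was lower by 0.39 on the log2 scale (log2 difference -0.39, SE 0.12, adjusted p = 0.0331 by limma), which was called, while Nipbl differed by -0.22 (SE 0.12, adjusted p = 0.26 by limma), which was not.

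**Figure D3:**
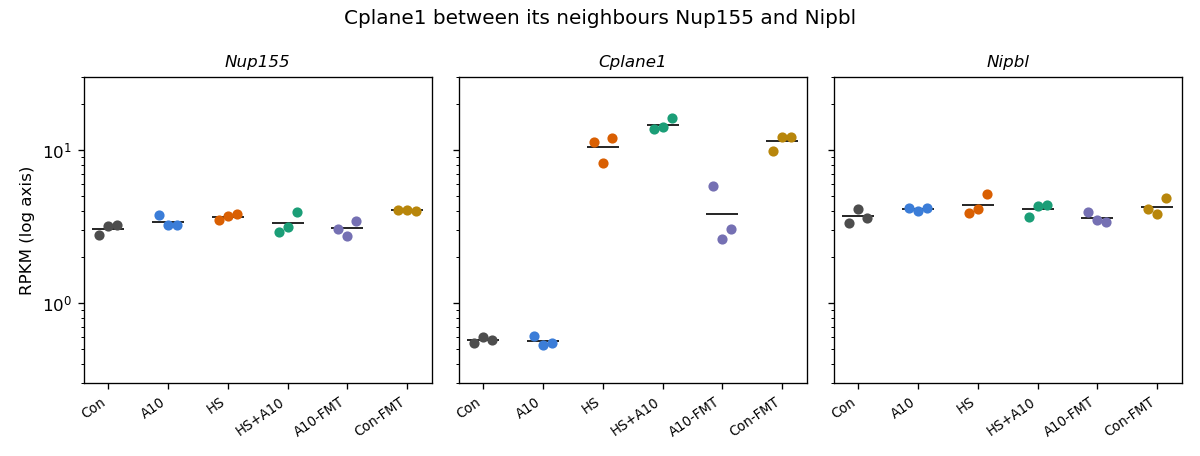
RPKM (y axis, log scale) of Nup155, Cplane1 and Nipbl, which follow each other on chromosome 15, in the 6 groups (x axis); points are libraries and bars are means of 3 libraries. Cplane1 covers 0.53 to 16.21 RPKM, Nup155 2.75 to 4.07 RPKM and Nipbl 3.32 to 5.18 RPKM.

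The other genes of the cilium were read from lists of 75 genes beside the 4 members, of which 71 passed the filter. Like the partners they were low, with a median mean level of 1.17 RPKM and 33 of the 75 under 1 RPKM. In none of the 75 were the 12 libraries of the high-fat diet and STZ apart from the 6 of the regular diet, which was seen in 2.38% of all tested genes and in Cplane1.

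In HS against Con livers, 13.9% of all genes were called, 12.5% as higher. Of the 71 cilium genes 2 were called, both higher in HS. These were Cep120, a centriole protein needed for growth of the centriole (0.42, SE 0.12, adjusted p = 0.0268 by limma), and Tmem237, a membrane protein of the transition zone (0.66, SE 0.21, adjusted p = 0.0441 by limma). The median difference of the cilium genes was 0.14, beside 0.17 for all genes. Neither gene was called without Con replicate 3 and A10 replicate 3, or with the libraries scaled to the same median. In A10 against Con livers no cilium gene was called by limma, where 0.0676% of all genes were. An unadjusted p under 0.05 by limma was found for 3 of the 71, beside 1687 of all 13307 genes. The median difference of the cilium genes was -0.01 beside 0.07 for all genes.

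In HS+A10 against A10 livers, 6 of the 71 cilium genes were called higher and 2 lower, beside 11.1% and 5.61% of all genes, and their median difference was 0.14 beside 0.06 for all genes. The highest was Tmem237, by 1.07 (SE 0.21, adjusted p = 0.00247 by limma), and the differences of the 71 ran from -0.96 to 1.07, beside 4.48 for Cplane1. Also higher were 2700049A03Rik (0.82), the mouse gene of the basal body protein Talpid3, the BBSome subunit Bbs4 (0.77), Wdr34 (0.56), a chain of the dynein that moves cargo back from the tip, the kinesin subunit Kif3b (0.52) and the IFT-B subunit Ift52 (0.31). Lower were Tctn3 (-0.96) and B9d1 (-0.86), which belong to the transition zone. Scaling to the same median gave 6 higher and 4 lower calls, and quantile normalization gave 6 of each. Without Con replicate 3 and A10 replicate 3, 4 were called higher and none lower, in a comparison in which 752 and 400 genes of all were then called in place of 1480 and 747. The 6 IFT-A genes, whose products the CPLANE proteins recruit, had a median difference of 0.27 and none was called.

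**Figure D4:**
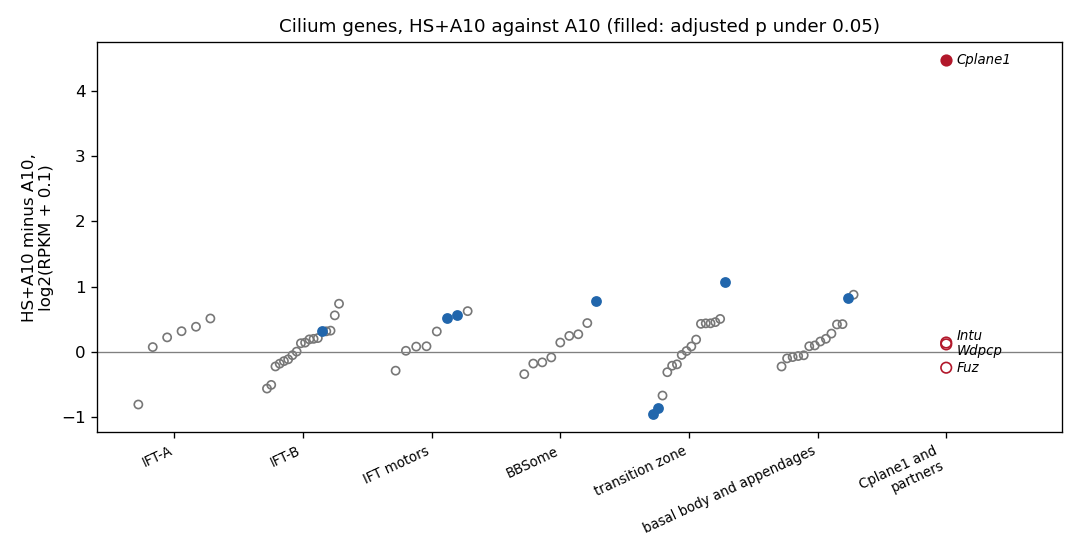
Difference HS+A10 minus A10 (y axis, log2(RPKM + 0.1)) of 71 tested cilium genes by the part of the cilium they belong to, and of Cplane1, Intu, Fuz and Wdpcp (x axis); each point is 1 gene and filled points have an adjusted p under 0.05. Cplane1 lies at 4.48, and the 71 other genes between -0.96 and 1.07.

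In HS+A10 against HS livers, where 4.42% of all genes were called, 1 of the 71 cilium genes was called, B9d1, with a difference of -1.07 (SE 0.27, adjusted p = 0.0356 by limma). Called higher and lower were 3 and 1 with median scaling, 2 and 2 with quantile normalization, and none without Con replicate 3 and A10 replicate 3. In A10-FMT against HS livers, where 18.1% of all genes were called, 1.63% as higher and 16.5% as lower, 8 cilium genes were called lower and none higher. They included the IFT-B genes Ift80 (-0.64), Ift81 (-0.72) and Ttc26 (-0.98), the last with means of only 0.077 RPKM in A10-FMT and 0.253 RPKM in HS. The others were the kinesin genes Kifap3 (-0.60) and Kif3b (-0.47), and Cep164 (-0.52), Cep120 (-0.49) and Cep83 (-0.42), which belong to the basal body and its appendages. Their median over the 71 was -0.20, as was that of all genes. With the libraries scaled to the same median, 1 was called lower and 1 higher. Without Con replicate 3 and A10 replicate 3, 6 were called lower and none higher.

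In Con-FMT against HS livers, 15 cilium genes were called lower and 1 higher, beside 16.5% and 3.52% of all genes, and their median was -0.31 beside -0.15 for all genes. The BBSome is a coat that carries membrane proteins to and from the cilium. In the list of genes for it and its partners, 4 of 9 were called lower, Bbs7 (-0.77), Arl6 (-0.76), Bbs9 (-0.64) and Ttc8 (-0.56). The basal body list had Cep164 (-0.78), Sclt1 (-0.70), Odf2 (-0.55) and Cep83 (-0.46) lower and Ccp110, a protein that caps the centriole until a cilium forms, higher (0.49). Lower too were Wdr19 of IFT-A (-0.86), Ift80 (-0.66) and Cluap1 (-0.66) of IFT-B, Kif3b (-0.55), Kif3a (-0.53) and Wdr60 (-0.42) of the motors, and Cc2d2a of the transition zone (-0.78). With the libraries scaled to the same median, 7 were called lower and 2 higher, with quantile normalization 4 and 1, and without Con replicate 3 and A10 replicate 3 9 and 1. Cplane1 was at a similar level in these groups, 11.5 and 10.5 RPKM.

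In A10-FMT against Con-FMT livers, Cplane1 was lower by 1.63 on the log2 scale (log2 difference -1.63). In this comparison 3 of the 71 cilium genes were called higher and 3 lower, beside 5.86% and 9.56% of all genes. Higher were Odf2 (0.70), a protein of the appendages of the mother centriole, Bbs7 (0.68) and Ift46 (0.29). Lower were Dync2li1 (-0.98), a light intermediate chain of the ciliary dynein, Ccp110 (-0.57) and Cep120 (-0.38). Their median difference was 0.06, beside -0.03 for all genes. Without Con-FMT replicate 3 the 3 lower calls were lost and 3 were called higher. Higher and lower calls numbered 5 and 3 with median scaling, 6 and 3 with quantile normalization, and 1 and 2 without Con replicate 3 and A10 replicate 3.

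The Hedgehog pathway depends on the cilium, and its readout genes give a view of it. Of 17 genes of the pathway listed, 11 passed the filter. Of the 11, 1 was called in HS against Con and 1 in HS+A10 against A10, beside 13.9% and 16.7% of all genes. There were 3 calls in A10-FMT against Con-FMT, 4 in Con-FMT against HS and 2 in A10-FMT against HS, beside 15.4%, 20.0% and 18.1%. Hhip, which binds Hedgehog ligands and is itself a target of the pathway, was called higher in HS against Con (0.78) and in HS+A10 against A10 (0.72), the 1 gene of the list called in each. Both calls of Hhip were lost under median scaling (0.66 and 0.67) and without Con replicate 3 and A10 replicate 3 (0.79 and 0.76), with the same direction, and the second also without Con-FMT replicate 3. Between the recipient groups, A10-FMT against Con-FMT, the ligand gene Ihh (1.83) and the co-receptor gene Gas1 (0.99) were called higher and the receptor and target gene Ptch1 (-0.78) lower. In Con-FMT against HS, Ptch1 was higher (0.63), and Gas1 (-1.09), Smo (-0.68), which encodes the signal transducer, and Sufu (-0.49), which encodes an inhibitor, were lower. In A10-FMT against HS, Ihh was higher (1.34) and Smo lower (-0.58). This call of Smo was lost with median scaling (-0.36) and quantile normalization (-0.37). That of Sufu was lost with both (-0.34 and -0.21) and without Con replicate 3 and A10 replicate 3 (adjusted p = 0.0615 by limma). That of Gas1 in A10-FMT against Con-FMT was lost without the same libraries (adjusted p = 0.0505 by limma).

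Planar cell polarity is the other process for which the CPLANE genes are named, and 11 of 14 listed genes were tested. Of the 11, 1 was called in HS against Con and 2 in HS+A10 against HS, beside 13.9% and 4.42% of all genes. There were 3 calls in A10-FMT against HS, 4 in HS+A10 against A10 and 4 in A10-FMT against Con-FMT, beside 18.1%, 16.7% and 15.4%. In Con-FMT against HS livers 7 of the 11 were called, all lower, beside 16.5% of all genes lower, and their median difference was -0.73 beside -0.15 for all genes. With median scaling 6 were called lower and 1 higher, and with quantile normalization 4 lower. The examples with the smallest adjusted p were the atypical cadherin gene Celsr1 (-2.58) and Dvl1 (-0.45), which encodes a Dishevelled protein of Wnt signalling. In A10-FMT against HS livers Celsr1 (-2.26), Dvl1 (-0.44) and Scrib (-0.33) were lower, and in HS+A10 against HS livers Celsr1 (-1.80) and Dvl1 (-0.33). With median scaling Dvl1 and Scrib lost the call in A10-FMT against HS (-0.22 and -0.11), and Scrib also with quantile normalization (-0.12). In HS+A10 against HS both calls were lost without Con replicate 3 and A10 replicate 3 (adjusted p = 0.0565 for Celsr1 and 0.0701 for Dvl1 by limma). In HS+A10 against A10 livers Dvl1 (-0.39), Vangl2 (-1.15) and Celsr1 (-1.33) were lower and Vangl1 (0.51) higher. The call of Vangl1 was lost with median scaling (0.45), with quantile normalization (0.43) and without Con replicate 3 and A10 replicate 3 (0.49), and that of Celsr1 without Con replicate 3 and A10 replicate 3 (adjusted p = 0.11 by limma). Compared with Con-FMT livers, A10-FMT livers had Fzd6 (1.39), Vangl1 (0.58) and Vangl2 (1.03) higher and Dvl3 (-0.44) lower. Vangl1, Vangl2 and Dvl3 were not called without Con-FMT replicate 3, nor Dvl3 with quantile normalization or without Con replicate 3 and A10 replicate 3. In HS against Con livers 1 gene was called, Dvl2 (-0.77), and the call was lost without Con replicate 3 and A10 replicate 3 (adjusted p = 0.117 by limma) and without Con-FMT replicate 3 (adjusted p = 0.0516 by limma).

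Of 12 genes taken for transcription factors of ciliary programmes, Rfxank of the MHC class II promoters among them, 10 were listed and 8 tested. Of the 8, 1 was called in each of HS against Con, HS+A10 against HS, A10-FMT against HS and HS+A10 against A10. The shares of all genes called there were 13.9%, 4.42%, 18.1% and 16.7%. In Con-FMT against HS 3 were called and in A10-FMT against Con-FMT 2, beside 20.0% and 15.4% of all genes. Rfx4, of the family that binds the X-box, was higher in HS than in Con livers (1.58, SE 0.29, adjusted p = 0.00325 by limma) and in HS+A10 than in A10 livers (1.03, SE 0.29, adjusted p = 0.0231 by limma; without Con replicate 3 and A10 replicate 3, adjusted p = 0.0697). It was lower in Con-FMT than in HS livers (-1.91), as were Rfx7 (-0.60) and Rfx3 (-0.76), both of which lost the call with median scaling (-0.43 and -0.64) and without Con-FMT replicate 3 (-0.59 and -0.53), and Rfx3 also without Con replicate 3 and A10 replicate 3 (adjusted p = 0.0539 by limma). In A10-FMT against Con-FMT livers Rfx4 was higher (1.09) and Rfx1 lower (-0.54, not called without Con-FMT replicate 3 at -0.42), and in this comparison Rfx4 and Cplane1 differed in opposite directions. Rfxank, which joins RFX5 at the promoters of MHC class II genes, was lower in HS+A10 (-1.18) and in A10-FMT (-1.26) than in HS livers, the first not called without Con replicate 3 and A10 replicate 3 (adjusted p = 0.0676 by limma). It was the 1 gene counted above for each of these comparisons with HS. Motile cilia genes were near 0: 10 of 12 were listed, their sum lay between 0.38 and 0.95 RPKM, and 2 were tested, of which Rsph9 was called lower in HS+A10 against A10 (-1.38), though not without Con replicate 3 and A10 replicate 3 (adjusted p = 0.0681 by limma). Of the dynein genes, Dnah5 reached 0.13 RPKM, Dnah9 0.02 RPKM and Dnah11 0.27 RPKM at most.

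The markers of the cells that the liver samples could hold were measured beside these genes. Of the 8 hepatocyte markers, 3 were called higher and none lower in HS against Con, beside 12.5% of all genes higher. In HS+A10 against A10, 2 were called higher and 2 lower, beside 11.1% and 5.61% of all genes. In A10-FMT against Con-FMT, none was called higher and 3 lower, beside 5.86% and 9.56%. The 10 cholangiocyte markers, for the cells in which primary cilia are best known, summed to 31.1 to 51.0 RPKM in the 6 regular-diet libraries and 27.2 to 55.0 RPKM in the other 12, with Krt19 at 0.48 to 3.46 RPKM, Krt7 at 0.25 to 1.21 and Epcam at 0.06 to 0.81 RPKM. None of the 9 tested was called in HS against Con, and Sox9 alone was called in HS+A10 against A10 (-1.11). In A10-FMT against Con-FMT livers 1 of the 9 was called higher and 1 lower, beside 5.86% and 9.56% of all genes. The lower gene was Sox9 (-1.07). The summed cholangiocyte level overlapped between the regular-diet libraries and the other 12. The part of cholangiocytes in the level of Cplane1 was not tested.

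The 10 stellate cell markers summed to 77.0 to 96.3 RPKM in the 6 regular-diet libraries and to 92.7 to 190 RPKM in the other 12, and 4 of the 10 were called higher in HS+A10 against A10, beside 11.1% of all genes, Lrat (0.93), Reln (0.83), Col1a2 (1.18) and Dcn (0.38), the last 2 not called without Con replicate 3 and A10 replicate 3, and Dcn not with either scaling. Des, for an intermediate filament, lay at 0.94 to 3.79 RPKM. In HS against Con, 2 of the 10 stellate cell markers were called higher and none lower, beside 12.5% of all genes higher. In Con-FMT against HS, 3 were called lower and none higher, beside 16.5% of all genes lower. In each of these comparisons 1 call was left with median scaling, and 1 without Con replicate 3 and A10 replicate 3. The 8 endothelial markers summed to 51.7 to 66.9 RPKM in the 6 regular-diet libraries and to 44.8 to 96.0 RPKM in the other 12. In HS+A10 against A10, 6 of 8 were called higher and none lower, beside 11.1% of all genes higher. The smallest adjusted p were those of Lyve1 (1.42) and Eng (0.63). Without Con replicate 3 and A10 replicate 3, 3 of 8 were called higher, beside 752 of all genes. In A10-FMT against HS, 4 of 8 were called lower and none higher, beside 16.5% of all genes lower. With median scaling none was called lower there and 1 higher. Pecam1 lay at 2.56 to 6.42 RPKM, Kdr, a receptor of VEGF, at 1.86 to 7.67 RPKM and Stab2, a scavenger receptor, at 3.83 to 9.27 RPKM. The 10 Kupffer cell markers summed to 89.6 to 110 RPKM in A10-FMT, below HS at 145 to 232 RPKM, and 6 of 10 were called lower in that comparison, beside 16.5% of all genes, the smallest adjusted p being those of Marco (-2.80) and C1qa (-0.91), and with median scaling 1 of 10, Marco. Over all libraries Clec4f lay at 13.63 to 32.99 RPKM, Adgre1 at 1.2 to 3.76 RPKM and Cd5l at 16.24 to 44.88 RPKM. No Kupffer cell marker was called in HS against Con, HS+A10 against A10 or Con-FMT against HS, beside 13.9%, 16.7% and 20.0% of all genes. In A10-FMT against Con-FMT no Kupffer cell or stellate marker was called by limma, and the endothelial genes Lyve1 (-1.55) and Pecam1 (-0.50) were lower. The 9 lymphocyte markers summed to 2.11 to 7.18 RPKM in all libraries, with the T cell genes Cd3e at 0.05 to 0.58 RPKM, Cd3g at 0.07 to 1.07 RPKM and Cd4 at 0.29 to 1.47 RPKM. The part of these cell types in the levels of Cplane1 was not tested.

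The genes whose pattern was most like that of Cplane1 were ranked by Pearson's r of log2(RPKM + 0.1) over the 18 libraries, among 10199 other genes that averaged 1 RPKM or more. The 18 points share the groups, so that r mainly follows the step between the regular diet and the high-fat diet with STZ, and it is given as a description. Ccng1, which encodes cyclin G1, came first with r = 0.97. Zap70, known as a kinase of T cell receptor signalling, followed with 0.96, then Exoc4 of the exocyst with 0.95, Phlda3 with 0.95 and Acad10, of the acyl-CoA dehydrogenase family, with 0.95.

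In Ccng1 the group means were 9.83 RPKM in Con, 9.39 in A10, 21.3 in HS, 25.4 in HS+A10, 14.0 in A10-FMT and 20.7 RPKM in Con-FMT. In Exoc4 they were 2.36, 2.46, 6.27, 7.74, 3.62 and 5.44 RPKM in the same order. By their means both genes thus had HS+A10 highest and A10-FMT between the regular-diet groups and the other 3, with smaller ratios than Cplane1. Zap70 and Acad10 had this order of means too, and ranking by r favours genes that have it. In Exoc4, A10-FMT replicate 2 at 2.63 RPKM lay within the Con range of 2.15 to 2.71 RPKM. Phlda3 had 0.23, 0.19 and 0.28 RPKM in Con, 6.52, 5.06 and 2.32 RPKM in HS and 1.40, 0.88 and 1.44 RPKM in A10-FMT.

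Within the 12 libraries of the high-fat diet and STZ alone, r to Cplane1 was 0.91 for Ccng1, 0.68 for Zap70, 0.91 for Exoc4, 0.74 for Phlda3 and 0.75 for Acad10, and none of the 5 was among the 5 highest there, which Kars led with 0.92. Over 18 libraries, 4 of the 5 stayed among the 5 highest without Con replicate 3, and 1 of 5 by Spearman's rho. For the partners, r to Cplane1 was 0.04 for Intu and -0.40 for Fuz over the 18 libraries. Within the 12 libraries of the high-fat diet and STZ it was 0.40 for Intu and -0.28 for Fuz. Wdpcp was under the 1 RPKM needed for the ranking.

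**Figure D5:**
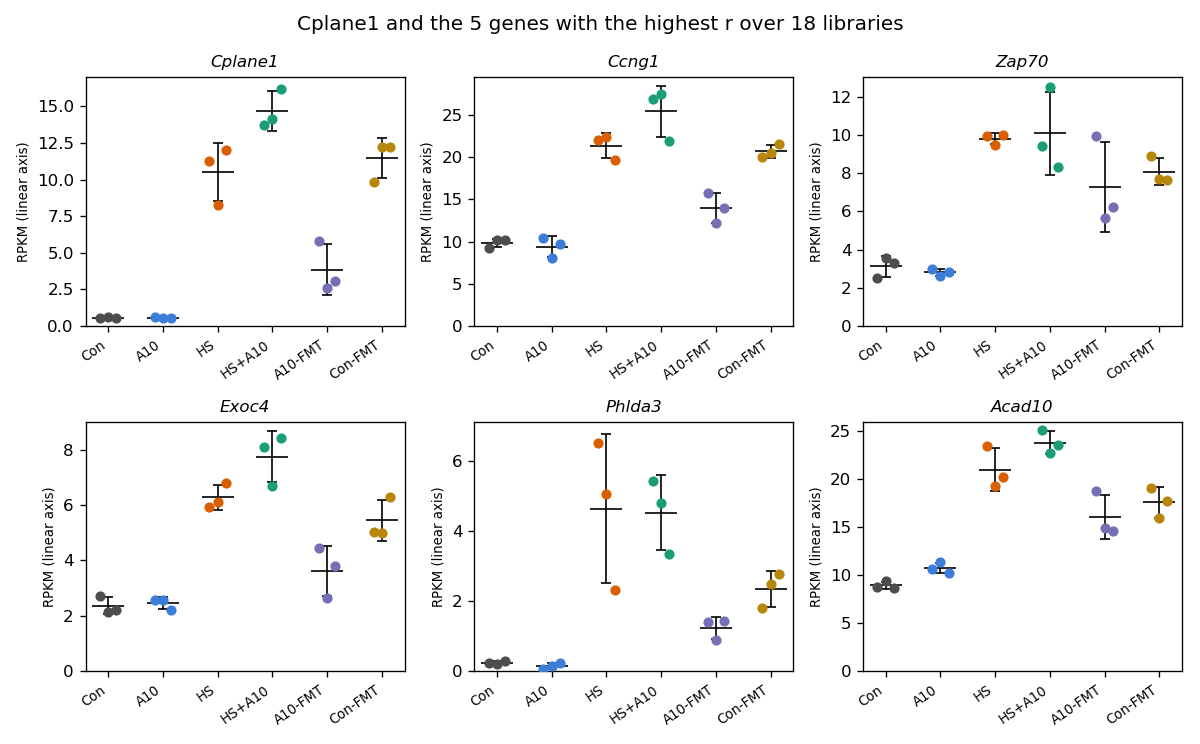
RPKM (y axes, linear, starting at 0) of Cplane1 and of the 5 genes with the highest r to it, Ccng1, Zap70, Exoc4, Phlda3 and Acad10, in the 6 groups (x axes); points are libraries, long bars means of 3 libraries and whiskers 1 SD. In each gene the Con and A10 points lie below those of HS and HS+A10, and the largest SD within a group is 3.02 RPKM, for Ccng1 in HS+A10.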

How the data were processed

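The authors enriched mRNA with oligo(dT), sequenced it on an Illumina instrument, aligned the reads to reference genes and deposited 1 RPKM value per gene and library, rounded to 2 decimals. Their methods name SOAPaligner, while the submitters' processing notes list Bowtie 0.12.2 and mm10. The read totals, counting rule and use of strand are not given in the sources used here. Relative depth was estimated from low genes whose values step by 1 read. Of 7 gene selection criteria tried one after another, keeping 8 to 115 genes, 2 left libraries without a value, and over all 7 the libraries lay at 0.922 to 1.10 of the mean. The tolerances of the criteria themselves bound this range, and no result rests on it. Read totals being unknown, intervals for counting error and detection limits were not computed.

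Of 19057 genes, 3 symbols were listed more than once and 26 had been turned into dates. Values were transformed as log2(RPKM + 0.1), which understates changes of low genes, and used with no further scaling. In R 4.3.3, limma 3.58.1 fitted 1 mean per group over 18 libraries with a variance trend (12 residual degrees of freedom) to 13307 genes. Tests were two-sided. The study's own test, DEGseq, was not used, as it takes no account of replicate spread. Python 3.11.15 was used for summaries and figures. On simulated data for HS+A10 against A10 (13307 genes), 152 of 200 changes of 1 and 191 of 200 changes of 2 on the log2 scale were called, with 8 and 10 unchanged genes called.

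The members, lists and comparisons were chosen with earlier results of these data known. Named are the members and Rsg1, the 5 genes most like Cplane1, the nearest listed genes, up to 2 called genes a list and direction by adjusted p (all where a count was 5 or fewer), and the first 3 markers of each cell type. Other cell type markers were named after their values were seen, and the result of 1 listed marker gene is not reported here. Positions come from GENCODE, promoters from RefSeq. The alternatives were a pseudocount of 1, a filter at 1 RPKM, no filter, quantile and median scaling, a replicate block, only the groups compared, no variance trend, each library left out, and, chosen after seeing the data, Con replicate 3 and A10 replicate 3 left out together, likeness within 12 libraries, and the recount of list calls under 4 of these alternatives.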

Additional observations from a re-analysis of the deposited data

How the results depend on the processing

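Over 27 alternatives the 5 called differences of Cplane1 kept their direction and stayed called, and the sixth (Con-FMT against HS+A10, -0.41 to -0.24) was called under none. HS+A10 against A10 ranged from 3.32 to 4.53, Con-FMT against A10 from 2.99 to 4.22, A10-FMT against A10 from 1.57 to 2.71, A10-FMT against HS+A10 from -2.33 to -1.75 and A10-FMT against Con-FMT from -1.97 to -1.41 (adjusted p at most 0.0229 by limma). The described HS minus Con difference was 2.86 with a pseudocount of 1.

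The partners lie close to no difference, and scaling turned several of them. With quantile normalization and with median scaling, Intu gave 0.018 and 0.022 for HS+A10 against HS, 0.087 and 0.028 for A10-FMT against HS, 0.13 and 0.085 for A10-FMT against A10, and 0.069 and 0.0064 for A10-FMT against HS+A10, and with quantile normalization 7.21e-05 for Con-FMT against A10. Fuz gave 0.19 and 0.21 for A10-FMT against HS, 0.053 and 0.065 for A10-FMT against A10, and 0.026 and 0.032 for Con-FMT against HS+A10, while HS+A10 against A10 (-0.309 and -0.310) and A10-FMT against Con-FMT (0.337 and 0.343) became called. Wdpcp gave 0.13 for Con-FMT against HS and -0.0038 for HS+A10 against A10 with quantile normalization. Its called difference, A10-FMT against HS+A10, lost the call at -0.65 with quantile normalization, at -0.75 with median scaling, and at an unmoved -0.89 with no filter, with only the groups compared and without Con replicate 3 and A10 replicate 3 together. With a pseudocount of 1, Wdpcp was called in Con-FMT against HS+A10 (-0.30). No Wdpcp value exists under the filter at 1 RPKM. The cause of these changes was not tested.

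Leaving out 1 library at a time, Intu ranged from -0.065 to 0.019 (HS+A10 against HS), -0.20 to 0.11 (A10-FMT against A10) and -0.062 to 0.24 (A10-FMT against Con-FMT). Fuz ranged from -0.14 to 0.073 (A10-FMT against HS), -0.17 to 0.040 (A10-FMT against A10) and -0.41 to -0.25 (Con-FMT against A10, called without HS, A10-FMT or Con-FMT replicate 1). Wdpcp ranged from -0.082 to 0.29 (HS+A10 against A10), -1.05 to -0.57 (A10-FMT against A10, called without A10-FMT replicate 2), -1.16 to -0.68 (A10-FMT against HS+A10) and -0.81 to -0.44 (Con-FMT against HS+A10, called without HS+A10 replicate 2 and without A10-FMT replicate 2 or 3). Intu in A10-FMT against HS was called without A10-FMT replicate 1 (-0.37), and Fuz in Con-FMT against HS without HS replicate 1 (-0.40).

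With the replicate block, all 44 differences kept their direction and call (Cplane1, HS+A10 against A10, 4.48, adjusted p = 1.53e-07 by limma). Replicate numbers were not shown to pair the libraries, since same-numbered libraries of different groups correlated at -0.098 to 0.14 and 9 of 18 were closest to their own number. Counts over all genes moved by more than 1.5 times under several alternatives. HS against Con gave 1667 genes higher and 187 lower, 477 and 440 with median scaling, 630 and 59 without Con replicate 3 and A10 replicate 3, and 50 and 14 at the study's threshold (adjusted p of at most 0.001, log2 change of at least 1). A10-FMT against HS gave 217 and 2198, and 691 and 465 with median scaling. A10-FMT against HS+A10 gave 79 and 1203, and 182 and 323 with median scaling. Cilium genes called lower ranged from 0 to 12 in A10-FMT against HS and from 2 to 16 in Con-FMT against HS. Of 78 calls in the Hedgehog, polarity, transcription factor, cholangiocyte, stellate, endothelial and Kupffer lists, recounted after seeing the data, 25 were lost with median scaling, 27 with quantile normalization, 25 without Con replicate 3 and A10 replicate 3, and 12 without Con-FMT replicate 3, and none of them turned. The number of reads is unknown, which limits what can be said of low values such as those of Wdpcp and Rsg1. The same holds for low list genes such as Ttc26, Hhip, Vangl2 and Rsph9.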
